A study of Mus musculus with 10 samples.

Results

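The genes described are 5 receptors of the tumour necrosis factor (TNF) receptor family, Tnfrsf13b, Tnfrsf17, Tnfrsf13c, Tnfrsf1b and Cd27, taken by name from the 545 endogenous genes of an nCounter mouse immune panel. The receptors were chosen by their difference between BDS and control pups and by their counts in these same lanes, so those values are given as a description, without p-values. The cells were microglia, the resident macrophages of the brain, sorted from the hippocampus of male Balbc mice at postnatal day 14. The 5 BDS pups (11, 17, 24, 38 and 59) underwent brief daily separation, that is, 15 min a day away from the mother on a schedule running over postnatal days 1 to 21, so they were collected before it ended. The 5 control pups (1, 18, 40, 52 and 69) carried no such label, and no genotype or drug was named for either group. Every pup came from a different litter and was read in 1 lane. The cells of a pup were measured in bulk, so fewer expressing cells and less RNA per expressing cell cannot be told apart.

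TNF family receptors are membrane proteins that pass the binding of a TNF-type ligand to adaptor proteins, chiefly the TRAF family, and on to NF-kB and kinase pathways or, for those with a death domain, to caspases. Tnfrsf13b (TACI), Tnfrsf17 (BCMA) and Tnfrsf13c (the BAFF receptor) are best known from B cells and plasma cells, where they bind the survival ligand BAFF, encoded by Tnfsf13b, and, for TACI and BCMA, also APRIL. Tnfrsf1b encodes TNFR2, which lacks a death domain, binds TNF and is found on microglia. Cd27 is a co-stimulatory receptor of T cells, B cells and NK cells, and its ligand is CD70.

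An nCounter lane counts fluorescent barcodes, 1 kind per probe, here on amplified cDNA. The lanes differed in depth: the geometric mean of 6 housekeeping genes, called the housekeeping signal below, ran from 477 to 1254 raw counts in BDS lanes and from 113 to 1060 in control lanes. The mean log2 signal was 1.23 higher in BDS lanes. The 8 negative control probes, which match no mouse RNA, did not follow this depth, with lane means of 8.63 to 11.6 raw counts in BDS lanes and 5.50 to 13.1 in control lanes. A gene was called above background in a lane when its raw count exceeded the mean of that lane's negative probes plus 2 SD, a limit between 13.9 and 26.3 raw counts. Genes above it in at least 4 of the 10 lanes were tested, which kept 283 of the 545 genes and 4 of the 5 receptors. A normalized count is a raw count divided by the lane's housekeeping signal, rescaled to the geometric mean of the 10 lanes. After that scaling the mean of the negative probes was 4.14 to 10.4 in the lanes of BDS pups and 7.13 to 56.7 in those of control pups, highest in control 52.

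The label of the cells was checked first. All 14 microglia genes with a row on the panel, among them Csf1r, Cx3cr1 and Trem2, were above the limit in all 10 lanes. In contrast, Ms4a1 and Pax5, which define B cells, were above it in 0 lanes, with at most 18 and 9 raw counts. Of the 13 B cell genes on the panel, 6 were above the limit in 0 lanes and 3, Cd79b, Blnk and Btk, in all 10. The summed B cell list ran from 1732 to 2343 normalized counts over BDS pups and from 1299 to 2241 over control pups. Of 21 T cell genes, 10 were above the limit in 0 lanes, Cd3e with at most 9 raw counts included. Il7r, at 96 to 3944 raw counts, was above it in all 10 lanes, and Icos and Tcf7 were in 9 each. The summed T cell list ran from 1157 to 1988 normalized counts over BDS pups and from 1173 to 2440 over control pups. Of 3 plasma cell genes, Prdm1 and Xbp1 were above the limit in all 10 lanes and Irf4 in 8. Of 10 NK cell genes, 5 were above it in 0 lanes, and Klrk1 and Prf1 in 8 each. Of 7 monocyte and neutrophil genes, 2 were above it in 0 lanes, Csf3r in all 10 and Ccr2 in 9.

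Over the whole panel, edgeR's quasi-likelihood test called 0 of 283 genes at an adjusted p under 0.05 (0%), with a smallest adjusted p of 0.0642. At an unadjusted p under 0.05 it counted 80 genes (28.3%), 55 higher in BDS (19.4%) and 25 lower (8.83%). At the adjusted threshold limma called 0 genes and DESeq2 called 25. Normalized counts of the groups did not overlap in 13 genes (4.59%), and none of the 4 receptors tested was among these. The median log2 fold change of all 283 genes was 0.09.

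Tnfrsf13b, the receptor TACI, was read at low raw counts in every lane. Its raw counts in BDS pups 11, 17, 24, 38 and 59 were 30, 24, 23, 45 and 35. In control pups 1, 18, 40, 52 and 69 they were 39, 44, 29, 61 and 43. The groups overlapped, and the highest count lay in control 52, the lane with the lowest housekeeping signal. The count exceeded the limit in 4 of 5 BDS lanes (BDS 24 missed it, at 23 against a limit of 26.1) and in 5 of 5 control lanes, and was 1.98 to 7.82 times the lane's mean negative probe. Over the 10 lanes the raw count spanned 2.65-fold, where the housekeeping signal spanned 11.1-fold.

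After division by the housekeeping signal the same gene spread widely. Tnfrsf13b stood at 36.3, 11.0, 13.3, 23.3 and 24.8 normalized counts in BDS pups 11, 17, 24, 38 and 59. In control pups 1, 18, 40, 52 and 69 it stood at 48.7, 39.6, 15.8, 311 and 117. All 5 BDS values were below the control mean, which control 52 and 69 raised, but control 40 lay inside the BDS range. BDS pups averaged 21.7 ± 10.1 and control pups 106 ± 120 (SD over 5 pups each). The log2 fold change was -2.16 ± 0.65 (SE). Leaving out control 52 gave -1.26, and holding lane depth as a covariate gave -0.15 ± 0.29.

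Tnfrsf17, the receptor BCMA, had a similar flat profile in raw counts. BDS pups 11, 17, 24, 38 and 59 had 29, 53, 28, 48 and 34 raw counts. Control pups 1, 18, 40, 52 and 69 had 35, 51, 34, 33 and 28. The groups had nearly the same raw level, averaging 38.4 ± 11.4 in BDS pups and 36.2 ± 8.70 in control pups (SD over 5 pups each). All 10 lanes were above the limit, by as little as 28 against 26.1 in BDS 24.

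Scaling placed Tnfrsf17 at 35.1, 24.4, 16.2, 24.9 and 24.1 normalized counts in BDS pups 11, 17, 24, 38 and 59. Control pups 1, 18, 40, 52 and 69 stood at 43.7, 45.9, 18.5, 168 and 76.0. Again control 52 and 69 were highest and control 40 fell among the BDS values. BDS pups averaged 24.9 ± 6.72 and control pups 70.5 ± 58.4 (SD over 5 pups each). The log2 fold change was -1.36 ± 0.47 (SE). It became -0.82 when control 52 was left out, -0.16 ± 0.30 in the fit that held lane depth, and 0.45 ± 0.56 when lanes were scaled to the positive controls alone.

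The scale factor cancels in the ratio of Tnfrsf13b to Tnfrsf17 within a lane. That ratio of raw counts averaged 0.855 ± 0.241 in BDS lanes (SD over 5 lanes), with a range of 0.453 to 1.03. In control lanes it averaged 1.24 ± 0.437 (SD over 5 lanes), with a range of 0.853 to 1.85. The ranges overlapped, and the highest ratios were those of control 52 and 69. Background does not cancel in this ratio. The counts were 23 to 61 and 28 to 53, where the negative probes had lane means of 5.50 to 13.1.

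Tnfrsf13c, the BAFF receptor, stayed within the background. BDS pups 11, 17, 24, 38 and 59 had 14, 15, 14, 19 and 11 raw counts, and control pups 1, 18, 40, 52 and 69 had 10, 15, 15, 11 and 10. It exceeded the limit in 0 of 10 lanes and the highest negative probe of the lane in 0 of 10, so it was not tested and no fold change is given. In the authors' deposited table, whose values are scaled, it was listed above background in 30% of samples. The 3 lanes with 23 or more of the authors' normalized counts were BDS 11 at 23, control 52 at 93 and control 69 at 42, with raw counts of 14, 11 and 10. Those 3 include the shallowest lanes of either group.

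**Figure D1:**
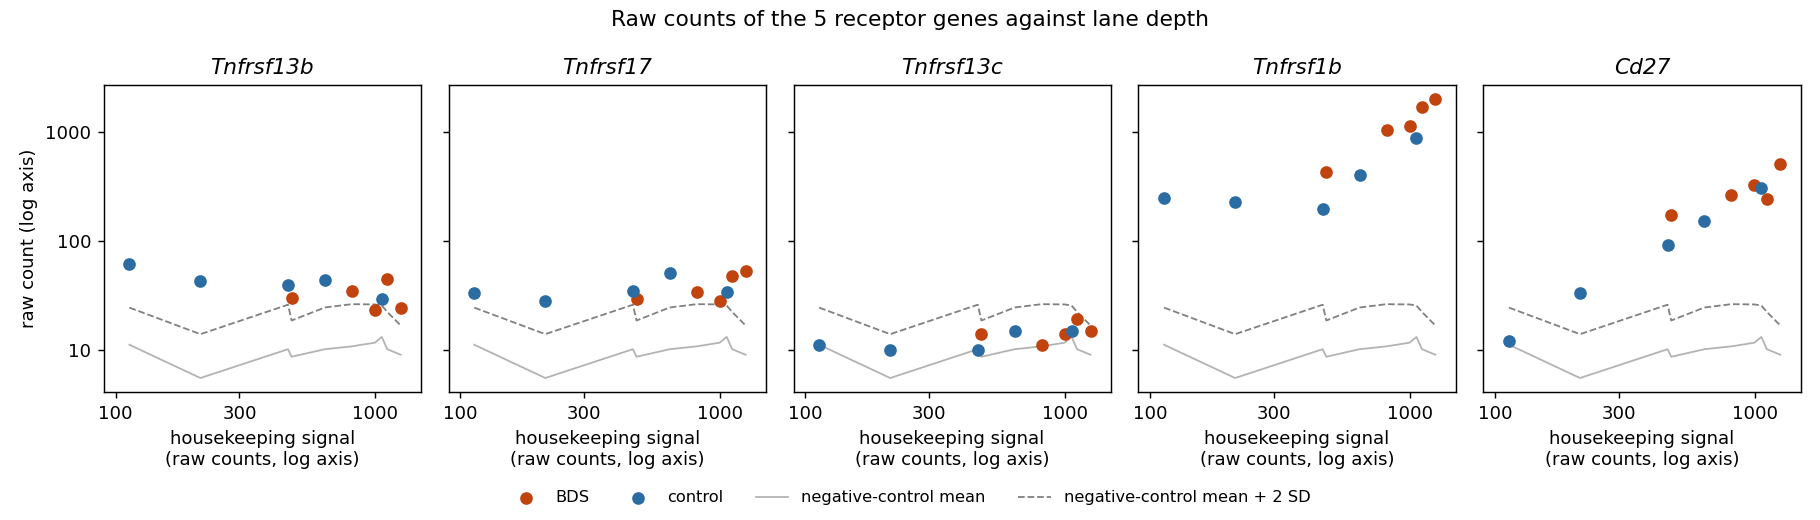
Raw count of each receptor gene (vertical, log axis) against the housekeeping signal of the lane (horizontal, raw counts, log axis), with 1 point per pup, BDS in orange and control in blue. The solid grey line is the lane's negative-control mean and the dashed line that mean plus 2 SD. Tnfrsf13b and Tnfrsf17 do not climb in proportion to depth, at 23 to 61 and 28 to 53 raw counts, and Tnfrsf13c lies under the dashed line, while Tnfrsf1b and Cd27 climb with depth to 2027 and 508.

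Tnfrsf1b, the gene for TNFR2, was far above background in every lane, at 19.4 to 225 times the mean negative probe. Raw counts were 434, 2027, 1134, 1721 and 1050 in BDS pups 11, 17, 24, 38 and 59. They were 196, 404, 884, 249 and 227 in control pups 1, 18, 40, 52 and 69. Counts did not strictly follow depth: control 52, at 249, exceeded the deeper control lanes 1 and 69, for example.

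In normalized counts Tnfrsf1b stood at 525, 931, 656, 891 and 745 in BDS pups 11, 17, 24, 38 and 59. It stood at 245, 364, 481, 1270 and 617 in control pups 1, 18, 40, 52 and 69. Control 1, 18 and 40 were below all BDS lanes, control 69 lay within the BDS range and control 52 above it. BDS pups averaged 750 ± 168 and control pups 595 ± 402 (SD over 5 pups each). The log2 fold change was 0.36 ± 0.35 (SE). Without control 52 it was 0.82 ± 0.26, and without control 52 and 69 it was 1.04 ± 0.26. Leaving out control 1 gave 0.16. In the fit that held lane depth the value was 0.94 ± 0.39, larger than without that term. The values of Tnfrsf13b and Tnfrsf17 rose too, to -0.15 and -0.16, and so shrank in size. In the authors' deposited table, which keeps all lanes, the fold change of Tnfrsf1b is a ratio of group means, not a log2 value, and stands at 1.07. On that scale the edgeR fit of all lanes gave 1.29.

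Cd27 had the widest span of raw counts of the 5 receptors over the 10 lanes, 42.3-fold. BDS pups 11, 17, 24, 38 and 59 had 173, 508, 327, 242 and 267 raw counts. Control pups 1, 18, 40, 52 and 69 had 91, 153, 307, 12 and 33. Cd27 was above the limit in all 5 BDS lanes and in 4 of 5 control lanes, and control 52, at 12 counts, was near that lane's negative-probe mean of 11.1.

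Normalized, Cd27 stood at 209, 233, 189, 125 and 189 in BDS pups 11, 17, 24, 38 and 59. In control pups 1, 18, 40, 52 and 69 it stood at 114, 138, 167, 61.2 and 89.6. All 5 BDS lanes exceeded the control mean, and the groups overlapped through BDS 38, which was below control 18 and 40. BDS pups averaged 189 ± 40.1 and control pups 114 ± 41.1 (SD over 5 pups each). The log2 fold change was 0.69 ± 0.27 (SE). It was positive in every fit run, between 0.40 ± 0.25 in the fit that held lane depth and 1.64 ± 0.74 with positive controls alone. The raw count of Cd27 rose more than in proportion to depth, as given below, and BDS lanes were deeper on average. Division by the housekeeping signal therefore leaves depth and group mixed in the log2 fold change of Cd27. The normalized value of control 52 was set by a raw count that did not exceed its limit, and without that lane the log2 fold change was 0.55.

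**Figure D2:**
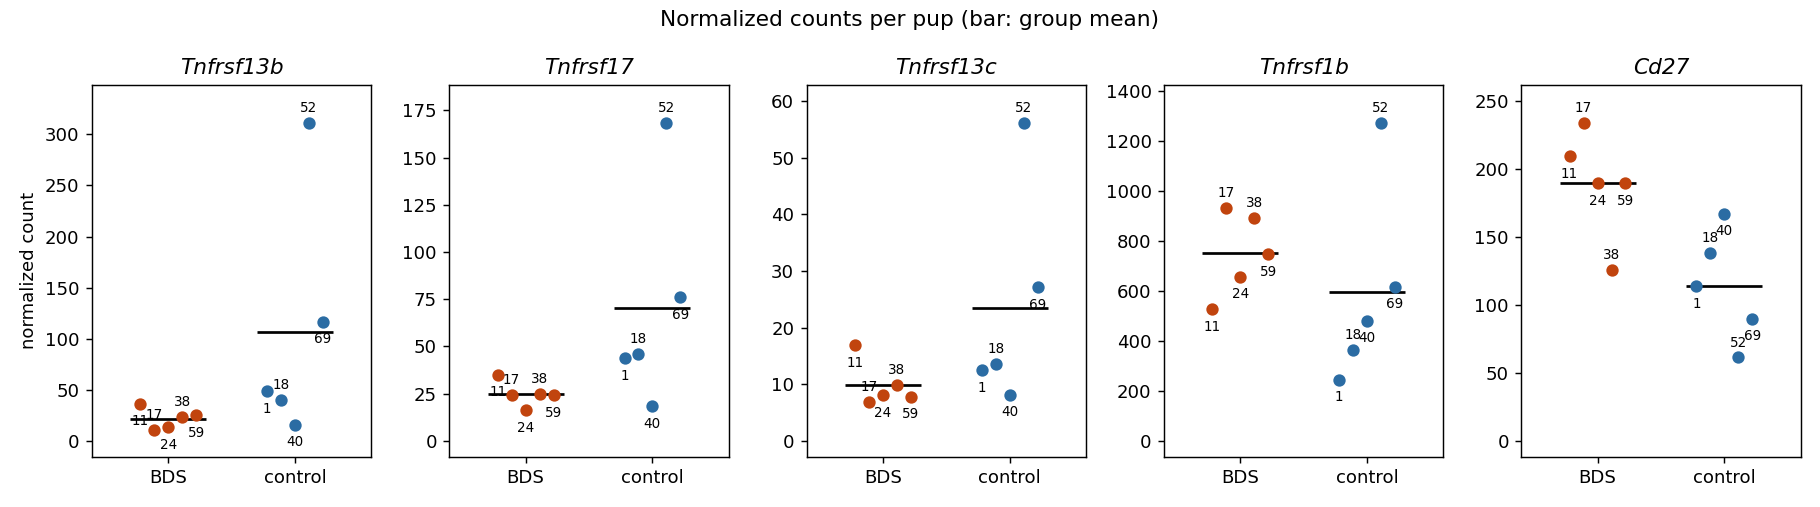
Normalized counts (vertical, linear axes that differ between panels) of the 5 receptor genes in BDS pups, left, and control pups, right, with 1 point per pup labelled by its number and a bar at the group mean. Control 52 is the highest point for Tnfrsf13b (311), Tnfrsf17 (168), Tnfrsf13c (56.1) and Tnfrsf1b (1270) and the lowest for Cd27 (61.2).

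How far a raw count followed depth was described by the slope of log2 raw count (pseudocount 1) on log2 housekeeping signal over the 10 lanes. A slope of 1 means that the count grew in proportion to depth and a slope of 0 that it did not change with depth. The median slope was 1.02 over the 283 tested genes and 0.11 over the 8 negative probes, which ranged from -0.02 to 0.34. Tnfrsf13b had a slope of -0.27 ± 0.09 (SE), the lowest of the 283. Tnfrsf17 followed at 0.14 ± 0.10, with 5 tested genes below it, and the untested Tnfrsf13c was at 0.17 ± 0.07. The slopes of these 3 receptors lay under that of the steepest negative probe. Tnfrsf1b, at 0.91 ± 0.21, was among the bulk of the tested genes, and Cd27, at 1.41 ± 0.10, had 266 tested genes below it.

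The same was computed within each group, so that the difference in depth between the groups did not enter. For Tnfrsf13b the slope was -0.05 ± 0.41 in BDS lanes and -0.26 ± 0.08 in control lanes (SE, n = 5 each). For Tnfrsf17 it was 0.52 ± 0.31 in BDS lanes and 0.11 ± 0.12 in control lanes. Neither gene's count grew in proportion to depth among the control pups alone, whereas the BDS lanes cover a narrower range of depth and give wide errors. Tnfrsf1b had 1.55 ± 0.16 in BDS lanes and 0.50 ± 0.27 in control lanes, where control 52 was high for its depth. Cd27 had 0.85 ± 0.35 in BDS lanes and 1.40 ± 0.02 in control lanes.

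**Figure D3:**
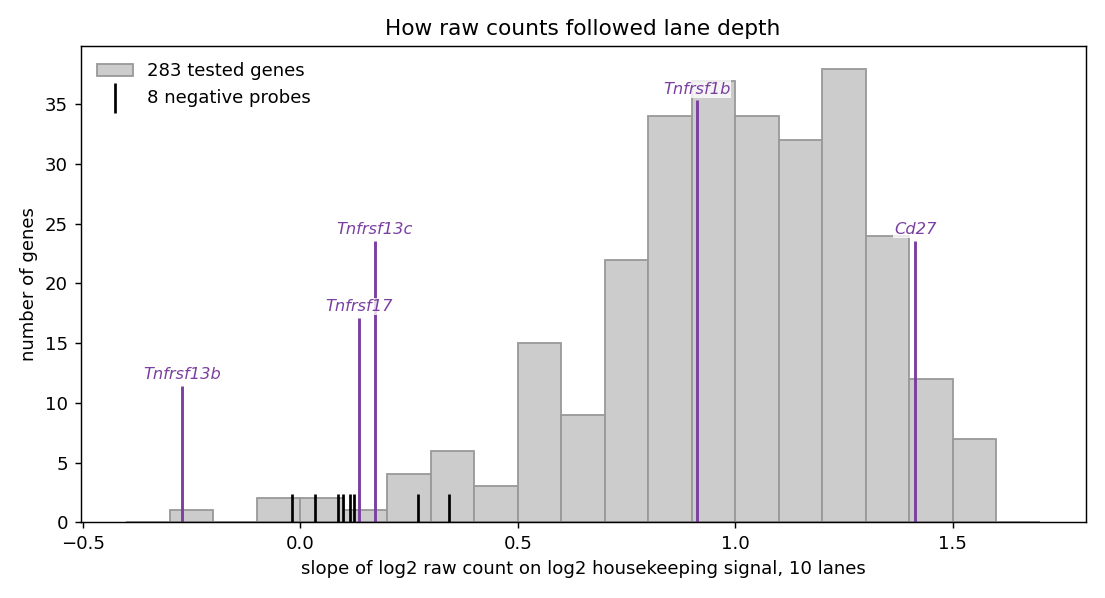
Histogram of the slope of log2 raw count on log2 housekeeping signal (horizontal) for the 283 tested genes (vertical, number of genes), with the 8 negative probes as short black marks and the 5 receptors as purple lines, whose heights carry no value. Tnfrsf13b lies below all 8 negative probes (-0.27), Tnfrsf17 and Tnfrsf13c among them (0.14 and 0.17), Tnfrsf1b near the middle of the tested genes (0.91) and Cd27 toward the upper end (1.41).

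A few lanes of opposite groups had nearly the same housekeeping signal, and in these the receptors can be set side by side with little scaling. BDS 11 and control 1 had housekeeping signals of 477 and 461. Tnfrsf13b had 30 raw counts in BDS 11 and 39 in control 1, and Tnfrsf17 had 29 and 35. Tnfrsf1b had 434 in BDS 11 and 196 in control 1, and Cd27 had 173 and 91. In this pair TNFR2 and CD27 transcripts were higher in the BDS pup, by 2.14-fold and 1.84-fold in normalized counts, while TACI and BCMA were lower, at ratios of 0.745 and 0.802.

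At the deep end, BDS 24 and BDS 38, with housekeeping signals of 997 and 1113, lie on either side of control 40, with 1060. Tnfrsf13b had 13.3 normalized counts in BDS 24 and 23.3 in BDS 38, against 15.8 in control 40. Tnfrsf17 had 16.2 and 24.9 in those BDS pups, against 18.5 in control 40. For both genes the control pup lay between the BDS pups. Tnfrsf1b was 1.36-fold higher in BDS 24 and 1.85-fold higher in BDS 38 than in control 40, whereas Cd27 had ratios of 1.13 and 0.751. These lanes were chosen for their depth, and single lanes carry no replicate error.

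**Figure D4:**
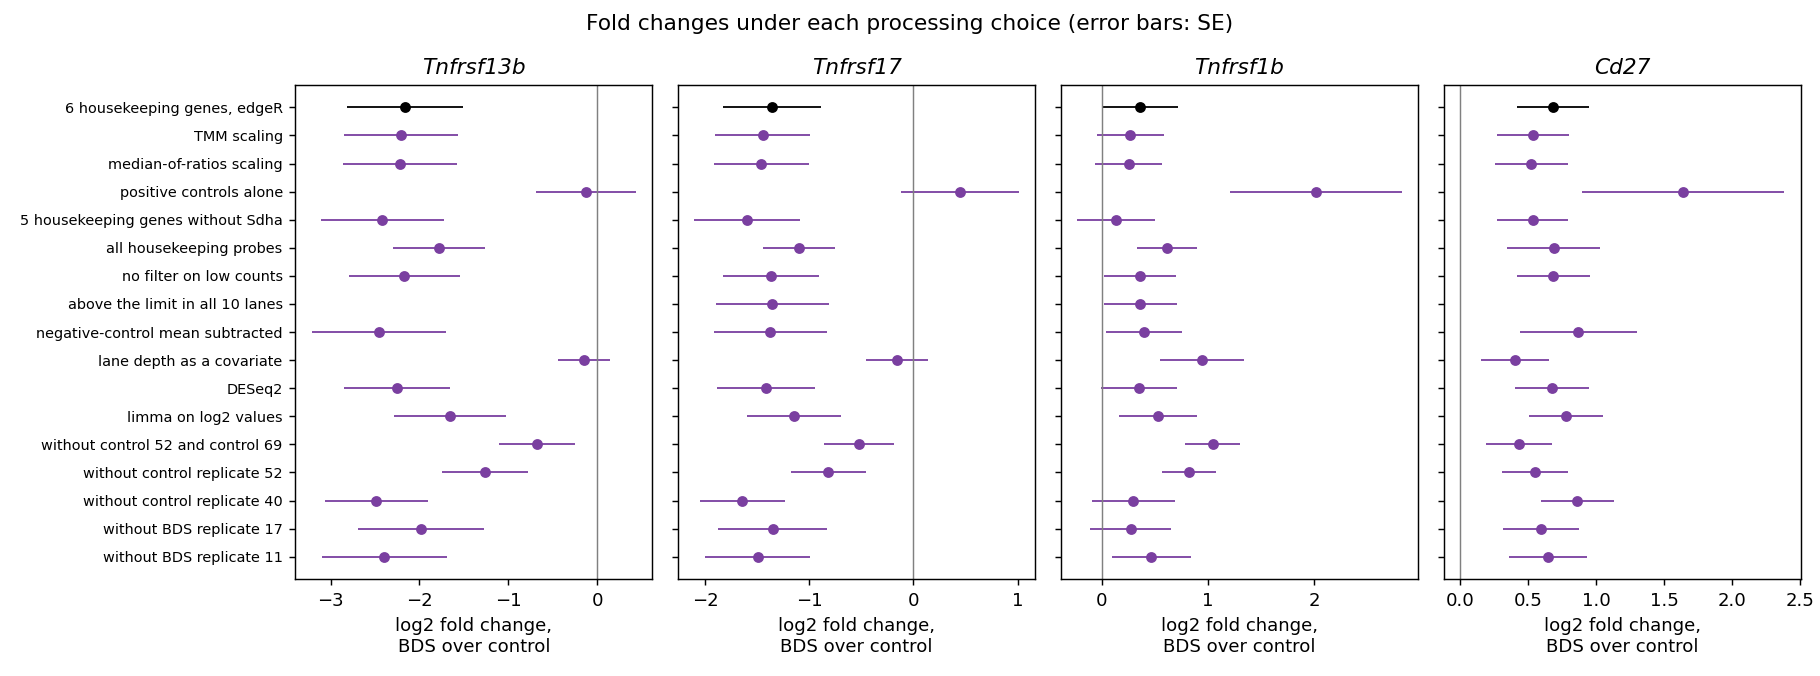
Log2 fold change, BDS over control (horizontal; points, with SE as bars), of the 4 tested receptors under each processing choice (rows), the black point being edgeR with 6 housekeeping genes; the horizontal scales differ between panels. Tnfrsf13b and Tnfrsf17 move from -2.16 and -1.36 to near 0 with lane depth as a covariate (-0.15 and -0.16). They are smaller in size without control 52, whereas Tnfrsf1b and Cd27 remain positive in every row.

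The profile of each receptor over the 10 lanes was then set against all other tested genes, as the root mean square difference of log2 normalized counts centred on each gene's mean. The genes nearest to Tnfrsf13b were Fcgr3, an IgG receptor, at 0.35, Tnfrsf17 at 0.50 and the cytokine gene Il13 at 0.53, where the median gene was at 1.47. Nearest to Tnfrsf17 were Relb, an NF-kB subunit, at 0.35, Il13 at 0.36 and the transcription factor gene Nfil3 at 0.38, against a median of 1.07. These neighbours had low slopes on depth, between -0.09 for Fcgr3 and 0.38 for Nfil3. Division by the housekeeping signal gives genes of low slope similar profiles, so their low slopes are no separate observation. Il13 had 13 to 28 raw counts and was above the limit in only 4 lanes. In the other direction, Tnfrsf13b was only the 17th nearest gene to Tnfrsf17, at 0.50.

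Tnfrsf1b and Cd27 had other neighbours. Among the genes nearest to Tnfrsf1b was Tnfrsf11a, the family member RANK, at 0.24, where the median was 0.71. Nearest to Cd27 were Ptafr, the receptor of platelet-activating factor, at 0.26, Pml at 0.28 and the chemerin receptor gene Cmklr1 at 0.29, against a median of 0.67. All of these were above the limit in all 10 lanes. Lane depth enters each of these profiles.

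Other receptors of the family, from a list that leaves out the 5 above, had 8 rows on the panel, of which 4 were tested. None passed edgeR's adjusted p of 0.05, and 0 had an unadjusted p under 0.05, where 28.3% of the panel did. Tnfrsf11a averaged 138 ± 35.2 normalized counts in BDS pups and 117 ± 81.4 in control pups (SD over 5 pups each). Its log2 fold change was 0.34 ± 0.37 (SE). Tnfrsf14 (HVEM) was at -0.00 ± 0.60, Tnfrsf4 (OX40) at -0.07 ± 0.34 and Ltbr, the lymphotoxin beta receptor, at -0.78 ± 0.42. Ltbr had 43 to 111 raw counts in BDS lanes and 42 to 63 in control lanes, with a slope on depth of 0.37. The receptors Cd40, Fas and Tnfrsf9 were above the limit in 0 lanes, with at most 23, 9 and 15 raw counts, and Tnfrsf8 in 1.

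Of 13 TNF family ligands with a row, 7 were tested, 0 passed the adjusted threshold and 2, Lta and Cd40lg, had an unadjusted p under 0.05, both lower in BDS, where 8.83% of the panel did so in that direction. The median log2 fold change of the 7 was -0.48, against 0.09 for all 283 genes. With positive controls alone both medians were positive, at 0.76 and 1.35. Tnf, the ligand of TNFR2, averaged 168 ± 52.0 normalized counts in BDS pups and 234 ± 108 in control pups (SD over 5 pups each), and its log2 fold change of -0.48 ± 0.31 had an edgeR adjusted p of 0.290. Lta, which also binds TNFR2, was at -1.26 ± 0.55 (edgeR adjusted p = 0.156), but exceeded the limit in 2 of 5 lanes of each group, with 3 to 27 raw counts in BDS lanes and 13 to 29 in control lanes. Cd40lg was likewise above it in 2 lanes of each group.

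Tnfsf13b, the gene for BAFF, which TACI, BCMA and the BAFF receptor all bind, was above the limit in more of the BDS lanes, which were also deeper. It passed in 5 of 5 BDS lanes, at 30 to 56 raw counts, and in 1 of 5 control lanes, at 4 to 41. BDS pups averaged 26.8 ± 7.23 normalized counts and control pups 18.7 ± 3.23 (SD over 5 pups each). The log2 fold change of 0.50 ± 0.30 did not pass (edgeR adjusted p = 0.270). The slope of its log2 raw count on log2 depth was 1.00 ± 0.12 over the 10 lanes (SE), 0.47 ± 0.27 within BDS lanes and 0.92 ± 0.12 within control lanes. The ligand Tnfsf12 (TWEAK), above the limit in all 10 lanes, was at -0.30 ± 0.20.

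Of 18 signalling genes below these receptors with a row, 15 were tested, 11 of them with positive and 4 with negative log2 fold changes, or 8 and 7 with TMM scaling. Their median was 0.18, against 0.09 for all 283 genes. None passed edgeR's adjusted p of 0.05, and 3 had an unadjusted p under 0.05, all higher in BDS, where 19.4% of the panel did so in that direction. These were Casp8, the caspase of death receptors, at 0.83 ± 0.23 (edgeR adjusted p = 0.0642), and the IkB kinase subunits Chuk at 0.68 ± 0.21 and Ikbkg at 0.58 ± 0.25. The TRAF adaptors, which carry signals of these receptors, did not pass. Traf2 was at 0.26 ± 0.25, Traf3 at -0.37 ± 0.22, Traf5 at -0.08 ± 0.18 and Traf6 at 0.26 ± 0.22. Nfkb2, the subunit of the alternative NF-kB pathway, was at 0.60 ± 0.31, and its partner Relb was at -0.98 ± 0.53, with 35 to 94 raw counts in BDS lanes and 26 to 47 in control lanes.

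Depth moved with the group in all these comparisons, and apart from the fit with depth as a covariate and the lanes of like depth its part in the results was not tested. The B cell and T cell lists overlapped between the groups, as given above. Their part in the values of the receptors was not tested either, nor was that of plasma cells, NK cells, monocytes or neutrophils.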

How the data were processed

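Microglia RNA from 10 pups (2 ng per pup, 5 rounds of PCR after cDNA synthesis, per the labels' protocols) was read on an nCounter panel. The authors deposited raw barcode counts per probe, not normalized. The other deposited table gives the authors' normalized counts (a score, being scaled counts rounded to whole numbers), with group means, the percent of samples above background, a ratio of the group means (fold change) and an unadjusted p-value, per the file headers. Per the series' design text, scaling used positive controls and 5 housekeeping genes, of which 6 are named. The software that counted barcodes is not given in the sources used here, and the genome build likewise. The deposited p-values were not used.

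Each lane was divided by its housekeeping signal (Tbp, Sdha, Polr1b, Oaz1, Gapdh and Alas1). Raw counts of the 283 tested genes were fitted with edgeR 4.0.16 in R 4.3.3 (quasi-likelihood F test, two-sided, no covariate, Benjamini-Hochberg over all 283), with each SE derived from the F statistic. DESeq2 1.42.0 and limma 3.58.1 (log2, pseudocount 1) served as alternatives, and simulated counts were used to check the edgeR step. Endogenous counts per lane ran from 341679 to 968930 in BDS lanes and from 76237 to 802033 in control lanes. They follow amplification without molecular identifiers, so a count is not a molecule. No 2 lanes of a group were alike to within sampling noise (chi-square per degree of freedom of 13.7 or more). The receptors, gene lists and tests were chosen with earlier results of these data known. The genes named are the 5 receptors, their listed relatives, ligands and adaptors, the 4 signalling genes with the smallest p, cell type markers, and the 3 tested genes nearest to each tested receptor, some of which are not reported here.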

Additional observations from a re-analysis of the deposited data

How the results depend on the processing

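Tnfrsf13b stayed lower in BDS in every fit run, but its log2 fold change was -0.12 with positive controls alone, -0.15 with lane depth as a covariate and -0.68 without control 52 and 69, and leaving out 1 pup gave -2.48 to -1.26. Tnfrsf17 was at 0.45 with positive controls alone and -0.16 with the covariate, and otherwise stayed negative, at -0.52 without control 52 and 69 and -1.64 to -0.82 with 1 pup left out. Tnfrsf13b was at -2.21 with TMM, -2.22 with median-of-ratios, -2.42 without Sdha and -1.78 with all housekeeping probes. In the same order Tnfrsf17 was at -1.44, -1.46, -1.59 and -1.10. After subtracting the negative-control mean, Tnfrsf13b was at -2.46 and Tnfrsf17 at -1.37. Tnfrsf1b was at 2.02 with positive controls alone and 1.04 without control 52 and 69, with 0.16 to 0.82 over single pups. Other scalings gave it 0.27 with TMM, 0.25 with median-of-ratios, 0.13 ± 0.37 (SE) without Sdha and 0.61 with all housekeeping probes. Cd27 was at 1.64 with positive controls alone, 0.43 without control 52 and 69 and 0.55 to 0.86 over single pups. Positive controls alone moved the median of all 283 genes from 0.09 to 1.35, so a rise was not particular to the receptors. Tnfrsf13b, Tnfrsf17 and Tnfrsf1b rose by more than that median and Cd27 by less. That median was -0.04 with TMM, -0.05 with median-of-ratios and -0.09 without Sdha, and 0.19 with all housekeeping probes. With all housekeeping probes as the measure of depth the slope of Tnfrsf1b was 1.24 and that of Cd27 1.72. With 1 pup left out, slopes ranged from -0.33 to -0.22 for Tnfrsf13b, 0.09 to 0.22 for Tnfrsf17, 0.14 to 0.25 for Tnfrsf13c, 0.82 to 1.32 for Tnfrsf1b and 1.35 to 1.47 for Cd27. Lanes above the limit numbered 8 to 10 for Tnfrsf13b and for Tnfrsf17 and 0 for Tnfrsf13c under the other 3 limits. Genes past an adjusted p of 0.05 numbered 14 with positive controls alone, 10 when only genes above the limit in all 10 lanes were fitted, 25 with DESeq2, and 0 to 48 with 1 pup left out (48 without control 40, 19 without BDS 11). At an unadjusted p under 0.05 there were 128 genes with positive controls alone, 139 without the filter, 36 with the covariate, and 45 (without BDS 17) to 108 with 1 pup left out. Of those calls, 55 were higher and 25 lower in BDS, a split that became 25 to 49 without Sdha, 33 to 40 under median-of-ratios factors, 36 to 39 under TMM, 55 to 15 with all housekeeping probes, 67 to 16 after subtracting the negative-control mean and 128 to 0 with positive controls alone. The causes were not tested. No paired analysis was possible because BDS and control pups carry different numbers in the labels. Raw counts of 23 to 61 for Tnfrsf13b and 28 to 53 for Tnfrsf17, close to the limit, bound the precision of both.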

Other observations

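Of the 283 tested genes, 19, Tnfrsf13b and Tnfrsf17 among them, had a slope of log2 raw count on housekeeping signal under 0.5, and all 19 had a negative log2 fold change, with a median of -0.94. Without these receptors the median of the other 17 was -0.88. Tnfrsf13b, Fcgr3, Tap1, Lta, Il13 and Tnfrsf17 had the 6 lowest slopes, from -0.27 to 0.14. Of the other 264 genes, 158 had a positive and 106 a negative log2 fold change, with a median of 0.17. The slope and the log2 fold change come from the same lanes, of which those of BDS pups were deeper on average, so the counts are not independent of each other. Depth and group are thus mixed in both measures. Apart from the fit with lane depth as a covariate and the receptors' lanes of like depth, the part of either was not tested. The negative signs of the 19 genes are therefore not read as a result separate from their slopes. Relb turned from -0.98 to 0.51 with lane depth as a covariate, and Fcgr3 had 81 to 204 raw counts over all lanes.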
